A study of Mus musculus with 22 samples.

Results

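The 6 genes of the membrane-spanning 4A (MS4A) family that are described here, *Ms4a4a*, *Ms4a4c*, *Ms4a6b*, *Ms4a6c*, *Ms4a6d* and *Ms4a7*, were followed in RNA-seq of whole mouse spinal cord. They were chosen by name from a table of 21995 genes, so they are 6 of 21995, and they were chosen with earlier results of these data known. In symptomatic SOD1-G93A mice *Ms4a6b*, *Ms4a6c*, *Ms4a6d* and *Ms4a7* rose by log2 fold changes of 3.04 to 7.86. All 6 lay above their controls without overlap, as did 22.4% of the 18161 genes with a count there. In old mice *Ms4a6d* rose by 3.01, and *Ms4a6c* and *Ms4a7*, which had too few counts for the filter, rose in a fit without it.

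MS4A proteins cross the membrane 4 times, with short ends inside the cell, and many of them associate with immune receptors. *Ms4a1* encodes CD20 of B cells and *Ms4a2* encodes the beta chain of the high-affinity IgE receptor of mast cells. The members described here are known mainly from macrophages and microglia, and in humans variants near MS4A6A and MS4A4A are linked with the risk of Alzheimer disease and with the amount of soluble TREM2, a microglial receptor.

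Each library came from the spinal cord of 1 C57BL/6 mouse. The aging comparison set 8 old wild-type males of 18 to 24 months against 8 young wild-type males of 3 to 4 months, all prepared with the Roche RNA KAPA Hyperprep kit. The ALS comparison set 3 symptomatic mice with the G93a genotype against 3 wild-type controls, all at 5 to 6 months, prepared with Illumina TruSeq. Each ALS group held 2 females and 1 male, and the labels do not say which library is which. The G93a mice carry a high-copy transgene of human SOD1 with the familial ALS mutation G93A, so every value for them belongs to 1 overexpression model. The comparisons share no library. Because kit and sex differ between them, no level was compared across them.

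The young libraries held 5078092 to 9358055 counts and the old ones 5664869 to 9145600. The control libraries held 10693060 to 13219797 and the SOD1-G93A libraries 9675610 to 11872431. Values are given as CPM, counts relative to the TMM-scaled library size, unless stated. In the aging libraries 3 counts correspond to 0.319 to 0.581 CPM and in the ALS libraries to 0.23 to 0.302 CPM, which covers counting error only, so the young and control levels of all members lie near the limit of this depth. A gene was called at a log2 fold change beyond 1 with an adjusted p under 0.05 in edgeR's quasi-likelihood test. The defining markers of spinal cord were abundant in all groups: the 7 oligodendrocyte genes summed to 24030 to 30270 CPM, the 7 astrocyte genes to 6029 to 18040 CPM, and the 9 neuronal genes to 3096 to 8802 CPM. The old library d149034 held the fewest member counts (2.62 CPM over all 6, against 6.45 to 11 CPM in the other old libraries). It was also the lowest old library for the microglial list and the highest for the neuronal list.

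All 6 members lie in one cluster on chromosome 19 (GRCm38). The 19 *Ms4a* genes of the table span chr19:10962293-11640851, or 678.6 kb, and the members occupy 283.8 kb of it, chr19:11321039-11604849, together with *Ms4a4b* and *Ms4a4d*. In order along the chromosome they are *Ms4a7* (chr19:11321039-11336146, minus strand), *Ms4a4a* (chr19:11375523-11392790, plus), *Ms4a4c* (chr19:11404770-11427246, plus), *Ms4a6c* (chr19:11469366-11482192, plus), *Ms4a6b* (chr19:11516512-11531256, plus) and *Ms4a6d* (chr19:11586604-11604849, minus). All are protein-coding. A transcript on the other strand overlaps *Ms4a4c*, *Ms4a6b* and *Ms4a6c*. Whether the counting used strand is not stated, so reads of these pairs may not be separable.

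The *Ms4a6* genes are the most alike of the members in coding sequence. Over their aligned coding sequences, with gaps counted as differences, *Ms4a6b* and *Ms4a6d* were identical at 80.3%, *Ms4a6b* and *Ms4a6c* at 75.6%, and *Ms4a6c* and *Ms4a6d* at 67.5%. Over positions where both genes have a base, the order changed, to 82.1%, 87.5% and 80.1%. With gaps counted, *Ms4a4a* and *Ms4a4c* were identical at 59.9%, and all other pairs at 47.7% to 52.9%. Without gaps these were 69.8% and 61.8% to 69.5%. The first 60 coding bases of the 3 *Ms4a6* genes are shown as an example of a short stretch. They put *Ms4a6d* closer to *Ms4a6c* than *Ms4a6b*, whereas over the whole coding sequence *Ms4a6b* is the closer. They are from GENCODE M21, and capitals mark a base that differs from *Ms4a6c*, which is 11 of 60 for *Ms4a6b* and 7 of 60 for *Ms4a6d*:
Ms4a6c: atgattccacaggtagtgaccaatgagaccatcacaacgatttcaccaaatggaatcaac
Ms4a6b: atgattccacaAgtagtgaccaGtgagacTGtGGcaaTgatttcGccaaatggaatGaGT
Ms4a6d: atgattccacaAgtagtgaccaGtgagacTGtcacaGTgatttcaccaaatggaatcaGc
Stretches of 50 bases that also occur in transcripts of another gene made up 10.5% of those of *Ms4a6c*, 8.19% of *Ms4a4c*, 3.57% of *Ms4a6b*, 2.54% of *Ms4a6d*, 0.306% of *Ms4a7* and 0% of *Ms4a4a*. Most member sequence is therefore its own at this length, and counts of *Ms4a6c* and *Ms4a4c* are the least certain, since RSEM divides shared reads by estimate.

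*Ms4a6b* and *Ms4a6c* also share sequence upstream. RefSeq windows (GRCm38.p6, 250 bases before to 50 after a start) were found for 5 of the 6 members, 6 windows in all, *Ms4a7* having 2. *Ms4a6d* has none in the table used. In the 250 bases before the start, *Ms4a6b* and *Ms4a6c* have 72 bases (28.8%) in runs of at least 12 bases that both windows hold, the longest stretch being 48 bases. Each other pair of windows had 0 such bases. The sequences are shown up to the first exon base that falls in each window, at chr19:11469118-11469365 (plus strand, 248 bases) for *Ms4a6c* and chr19:11518309-11518452 (plus strand, 144 bases) for *Ms4a6b*, with the shared runs in capitals:
Ms4a6c: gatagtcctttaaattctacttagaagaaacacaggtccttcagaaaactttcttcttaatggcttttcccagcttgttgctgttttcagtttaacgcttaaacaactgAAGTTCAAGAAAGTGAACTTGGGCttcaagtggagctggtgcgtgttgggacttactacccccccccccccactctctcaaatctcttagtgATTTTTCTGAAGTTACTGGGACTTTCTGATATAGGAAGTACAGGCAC
Ms4a6b: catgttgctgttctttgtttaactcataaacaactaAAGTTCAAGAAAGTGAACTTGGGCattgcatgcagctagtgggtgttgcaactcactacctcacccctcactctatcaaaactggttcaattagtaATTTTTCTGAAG
In both genes the longer run continues past the last base shown into an annotated exon. The *Ms4a6b* window lies within the annotated gene, whose longest transcript starts upstream of it, at base 11516512. The letters of 3 motifs of factors that act in macrophages were searched on both strands of the 300-base windows. GAGGAA, the PU.1 core, occurred in 2 of 6 windows, at base 44 after a start of *Ms4a7* and at base -61 of *Ms4a4c*, and it occurs in 28.3% of all 32851 windows. The ETS-IRF composite element and the core of the interferon-stimulated response element occurred in 0 of 6, against 2.72% and 3.44% of all windows. These are matches of letters in short windows and no measure of binding.

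The first question was what happened to the members with age. *Ms4a6d*, whose protein is reported at the surface of macrophages, ranged from 0 to 1.02 CPM in young mice with a median of 0.179 CPM (0 to 9 counts). In old mice it ranged from 1.69 to 4.02 CPM with a median of 3.11 CPM (11 to 30 counts). The lowest old library lay above the highest young one, so the groups did not overlap. The mean rose from 0.362 ± 0.361 to 2.96 ± 0.691 CPM (SD, n = 8 each), a log2 fold change of 3.01 (SE 0.36, edgeR adjusted p = 1.19e-06). It was the 19th largest log2 fold change of 13647 genes tested.

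*Ms4a6d* was the only member of 6 to pass the filter on low counts in aging, under which roughly 10 counts had to be present in 8 libraries. It was called higher, 1 of 1 tested, where 2.18% of the 13647 genes tested were called higher and 0.044% lower. It passed on the old libraries alone, so a member that passed had to differ, and the other 5 members were compared by exact permutation tests and by the same edgeR fit without the filter. In that fit 5 of 6 members were called higher, against 2.73% of 18634 genes. Every library of the old group lay above every young one for 2 of 6 members, against 2.85% of 18634 genes.

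*Ms4a6c* was the other member without overlap. Young libraries held 0 to 5 counts, 4 of 8 of them at 0, and the median was 0.0706 CPM. Old libraries held 5 to 30 counts, from 0.77 to 3.52 CPM with a median of 2.17 CPM. The mean CPM was 0.185 in young and 2.28 in old mice (exact two-sided permutation p = 0.000155, the smallest that 12870 arrangements allow). Over all libraries the counts were 12 against 135, a rate ratio of 11.9 (95% counting interval 6.60 to 23.6), and the unfiltered log2 fold change was 3.46 (SE 0.481, edgeR adjusted p = 7.48e-06).

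*Ms4a7*, which in the mouse brain is known as a marker of macrophages at the tissue borders, was almost undetected in young cord. No young library held more than 1 count, and 3 of 8 held 0. Old libraries ranged from 0 to 3.53 CPM with a median of 1.73 CPM (0 to 26 counts). In all, 7 of 8 old libraries lay above all young ones, and the exception, with 0 counts, was d149034. Counts summed to 5 against 104, a rate ratio of 22 (95% counting interval 9.14 to 69.3). The mean CPM was 0.0846 and 1.81 (exact permutation p = 0.0014), and the unfiltered log2 fold change was 4.22 (SE 0.636, edgeR adjusted p = 2.36e-05).

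*Ms4a6b*, also described in T cells, changed less. It ranged from 0 to 0.522 CPM in young mice (median 0.271 CPM, at most 4 counts) and from 0.154 to 1.34 CPM in old mice (median 0.844 CPM, 1 to 10 counts). In all, 7 of 8 old libraries lay above all young ones, and d149034 again fell within the young range. The mean rose from 0.247 to 0.844 CPM (exact permutation p = 0.00155), with a rate ratio of 3.31 (95% counting interval 1.85 to 6.23) and an unfiltered log2 fold change of 1.66 (SE 0.433, edgeR adjusted p = 0.00712).

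The *Ms4a4* members stayed at single counts. *Ms4a4c*, an interferon-responsive gene of myeloid cells, had 1 count over the 8 young libraries and 11 over the 8 old ones, at most 3 in a library. Its rate ratio was 11.6 with a wide counting interval of 1.69 to 501, the exact permutation p was 0.0182, and the unfiltered log2 fold change was 2.61 (edgeR adjusted p = 0.0224). *Ms4a4a*, the mouse counterpart of a gene of alternatively activated macrophages in humans, had 3 and 5 counts, a ratio of 1.76 (0.343 to 11.4) and an exact permutation p of 0.413. No difference in *Ms4a4a* was detectable at this depth.

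In each fit that left out a young library, and in that without the old library d149034, *Ms4a6c* also passed the filter, and 2 of 2 members tested were called. With a smaller group the filter asked for the counts in fewer libraries, and *Ms4a6c* again passed through the old libraries. Without d149034 the members had log2 fold changes of 3.09 for *Ms4a6d* (edgeR adjusted p = 3.26e-07) and 3.59 for *Ms4a6c* (edgeR adjusted p = 7.9e-07). *Ms4a7* and *Ms4a6b* then had an exact permutation p of 0.000311 each, the smallest possible without that library. For both genes d149034 was the only old library within the young range, so leaving it out fixed this p in advance.

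**Figure D1:**
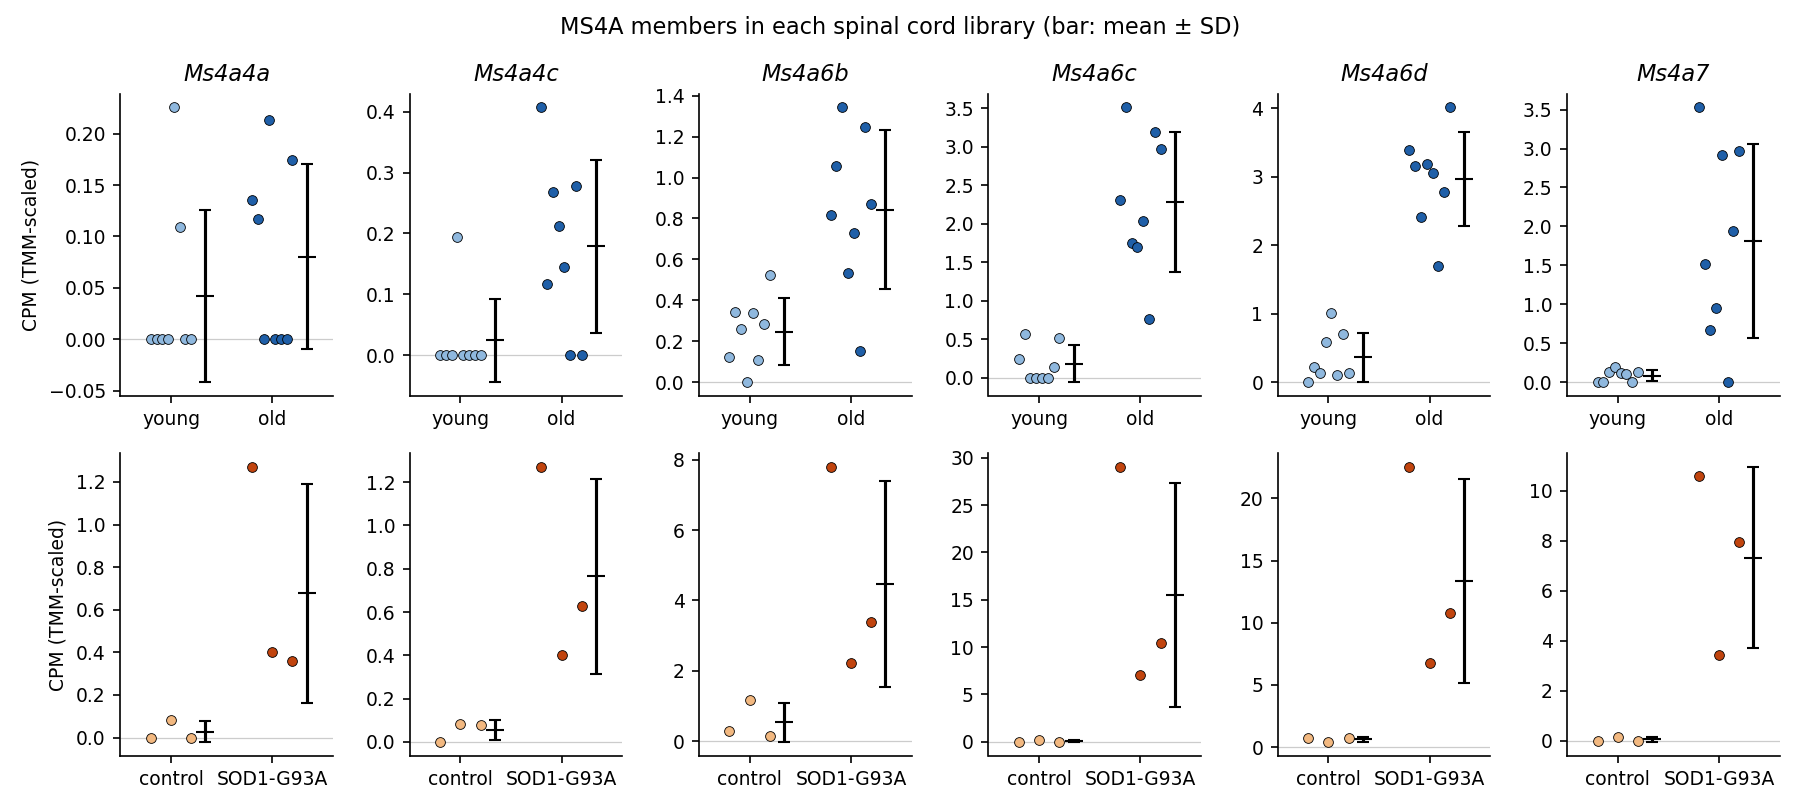
TMM-scaled CPM (y axis, linear, own scale in each panel) of the 6 members in every library, with young against old mice in the upper row and control against SOD1-G93A mice in the lower row. Points are libraries and bars are mean ± SD. The 3 SOD1-G93A points lie above all 3 control points in every lower panel, and in the upper row *Ms4a6c* and *Ms4a6d* separate fully. Such separation holds for 22.4% of 18161 genes in the ALS libraries and 2.85% of 18634 in the aging libraries.

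The second question was what happened in symptomatic SOD1-G93A mice. *Ms4a6c* showed the largest change among the members. Control libraries held 0, 2 and 0 counts, and SOD1-G93A libraries held 343, 70 and 117, or 29.0, 7.04 and 10.5 CPM. The lowest SOD1-G93A library lay far above the highest control, at 0.168 CPM. With 2 against 530 counts the rate ratio was 285 (95% counting interval 78.6 to 2363). The log2 fold change was 7.86 (SE 0.942, edgeR adjusted p = 0.000666), the 9th largest of 14386 genes tested.

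*Ms4a7* followed, again from almost no counts. Control libraries held 0, 2 and 0 counts, and SOD1-G93A libraries 125, 34 and 89, or 10.6, 3.42 and 7.96 CPM. The rate ratio was 134 (95% counting interval 36.6 to 1109). The log2 fold change was 6.77 (SE 0.775, edgeR adjusted p = 0.000534), the 22nd largest. All control counts of *Ms4a6c* and *Ms4a7* were in library d4441, and without it the fitted log2 fold changes were 10.5 (edgeR adjusted p = 0.00897) and 9.38 (edgeR adjusted p = 0.00545). With so few control counts the fitted size is uncertain, and the counting intervals leave out the spread between libraries.

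*Ms4a6d* had a measurable control level. It was at 0.759, 0.421 and 0.768 CPM in control libraries and at 22.5, 6.74 and 10.8 CPM in SOD1-G93A libraries. The groups did not overlap, and the mean rose from 0.649 ± 0.198 to 13.4 ± 8.19 CPM (SD, n = 3 each). The log2 fold change was 4.35 (SE 0.526, edgeR adjusted p = 0.000686).

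*Ms4a6b* was at 0.284, 1.18 and 0.154 CPM in controls and at 7.79, 2.21 and 3.40 CPM in SOD1-G93A mice. The control library d4441 held 14 of the 19 control counts, which still left the groups apart. The log2 fold change was 3.04 (SE 0.69, edgeR adjusted p = 0.0107), and it was 4.33 without that control (edgeR adjusted p = 0.0129).

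These 4 members passed the filter and all 4 were called higher, where 8.5% of 14386 genes were called higher and 1.2% lower. None would have passed on the control libraries, so a member that passed had to differ. *Ms4a4a* and *Ms4a4c* did not pass. *Ms4a4a* held 0, 1 and 0 counts in controls and 15, 4 and 4 in SOD1-G93A mice, a ratio of 24.8 (95% counting interval 4.02 to 1020). *Ms4a4c* held 0, 1 and 1 counts and then 15, 4 and 7, a ratio of 14 (95% counting interval 3.50 to 122). Both were low, yet neither group overlapped its controls. Without the filter all 6 members were called higher, against 7.21% of 18161 genes, with edgeR adjusted p of 0.0186 for *Ms4a4a* and 0.0147 for *Ms4a4c*. All 6 were without overlap, against 22.4% of 18161 genes. For each of the 6 the exact permutation p was 0.1, the smallest that 3 against 3 allows.

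The SOD1-G93A library d4435 was the highest for each of the 6 members, with a sum of 72.5 CPM against 20.2 and 33.6 CPM in the other two. It was also the highest for the microglial list. Without it the log2 fold changes were 7.03 for *Ms4a6c*, 6.41 for *Ms4a7*, 3.75 for *Ms4a6d* and 2.37 for *Ms4a6b*, and all 4 were still called. In bulk tissue, more cells of a type and more RNA per cell cannot be told apart.

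**Figure D2:**
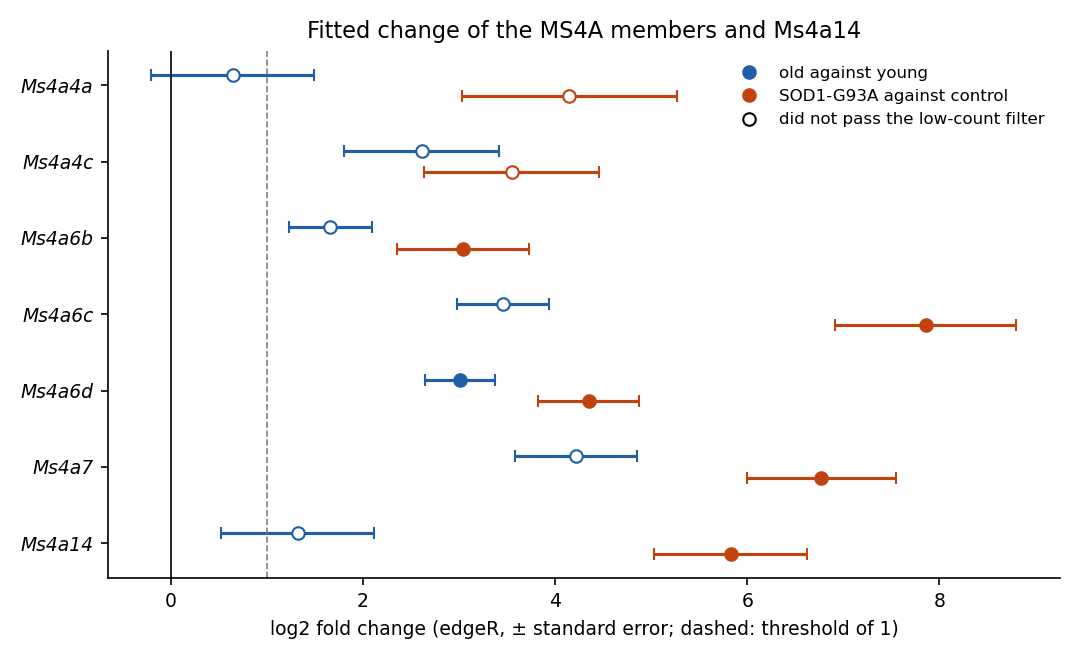
Fitted log2 fold change (x axis, ± standard error) of the 6 members and *Ms4a14*, for old against young mice and for SOD1-G93A against control mice. Filled points passed the filter on low counts and open points come from the fit without it. *Ms4a6c* reaches 7.86 in SOD1-G93A mice, and *Ms4a4a* in old mice is the only member whose standard error bar crosses 0.

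Whether a member changed by a different amount in ALS than in aging was asked in a joint fit of the 22 libraries. *Ms4a6c* changed more in SOD1-G93A mice than in old mice, by 4.27 on the log2 scale (SE 1.36, edgeR adjusted p = 0.0212). Among all 14502 genes, 11.6% were more positive and 14.2% more negative in SOD1-G93A mice. The *Ms4a6c* difference rests on few counts in the young and control groups. Its edgeR adjusted p rose to 0.0731 without young library d149011, 0.0587 without d149020, 0.0548 without control d4438 and 0.0668 without control d4444. The differences of *Ms4a6b* (1.33, edgeR adjusted p = 0.256), *Ms4a6d* (1.29, edgeR adjusted p = 0.197) and *Ms4a7* (2.41, edgeR adjusted p = 0.318) did not pass. Without control d4441 that of *Ms4a6b* was 2.60 (edgeR adjusted p = 0.0428). Experiment, kit and sex composition coincide in this test and cannot be told apart from the conditions.

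Levels of different members were compared per length, as FPKM. In SOD1-G93A mice *Ms4a6c* (9.49 ± 6.95 FPKM, SD, n = 3) and *Ms4a6d* (9.36 ± 5.47) had the highest means, followed by *Ms4a7* (6.12 ± 3.74), *Ms4a6b* (2.37 ± 0.98), *Ms4a4a* (0.807 ± 0.601) and *Ms4a4c* (0.637 ± 0.296). Of the neighbours in this order, *Ms4a6b* and *Ms4a4a* alone had libraries that did not overlap (1.69 to 3.49 and 0.43 to 1.5 FPKM). *Ms4a7* and *Ms4a6b* overlapped (2.02 to 9.34 and 1.69 to 3.49 FPKM), but within each SOD1-G93A library *Ms4a7* was the higher. Likewise *Ms4a6d* lay above *Ms4a7* within each. *Ms4a6c* lay above *Ms4a6d* only in d4435 (17.4 and 15.4 FPKM), and below it in d4437 (4.55 and 4.76) and d4443 (6.48 and 7.92). In old mice the order was *Ms4a6d* (2.27 ± 0.716 FPKM, SD, n = 8), *Ms4a7* (1.83 ± 1.41), *Ms4a6c* (1.69 ± 0.677), *Ms4a6b* (0.414 ± 0.186), *Ms4a4c* (0.186 ± 0.149) and *Ms4a4a* (0.0963 ± 0.109). There the libraries of all neighbours overlapped, those of *Ms4a6c* and *Ms4a6b* the least (0.65 to 3.02 and 0.11 to 0.7 FPKM). Within each old library *Ms4a6c* lay above *Ms4a6b*, and the other neighbours changed places between libraries. In young and control mice the FPKM means were 0.0333 to 0.477, from so few counts that no order was read.

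The 6 members made up most *Ms4a* RNA per length. Their FPKM summed to 0.37 to 1.87 in young and 1.79 to 8.95 in old mice, and to 0.57 to 1.70 in control and 14.1, 24.1 and 48.1 in SOD1-G93A mice. In SOD1-G93A libraries they took 93.1% to 97.2% of the FPKM of all 19 *Ms4a* genes, and in old libraries a median of 92.5%. The share of *Ms4a6d* was 31.1% to 31.5% in the 3 SOD1-G93A libraries while its level ran from 4.76 to 15.4 FPKM. The share of *Ms4a6c* was 25.8% to 35.2% and that of *Ms4a7* 13.3% to 27.9%. Across old libraries the share of *Ms4a7* varied most, from 0% to 40.4%, whereas that of *Ms4a6d* ran from 23.8% to 48.1%.

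**Figure D3:**
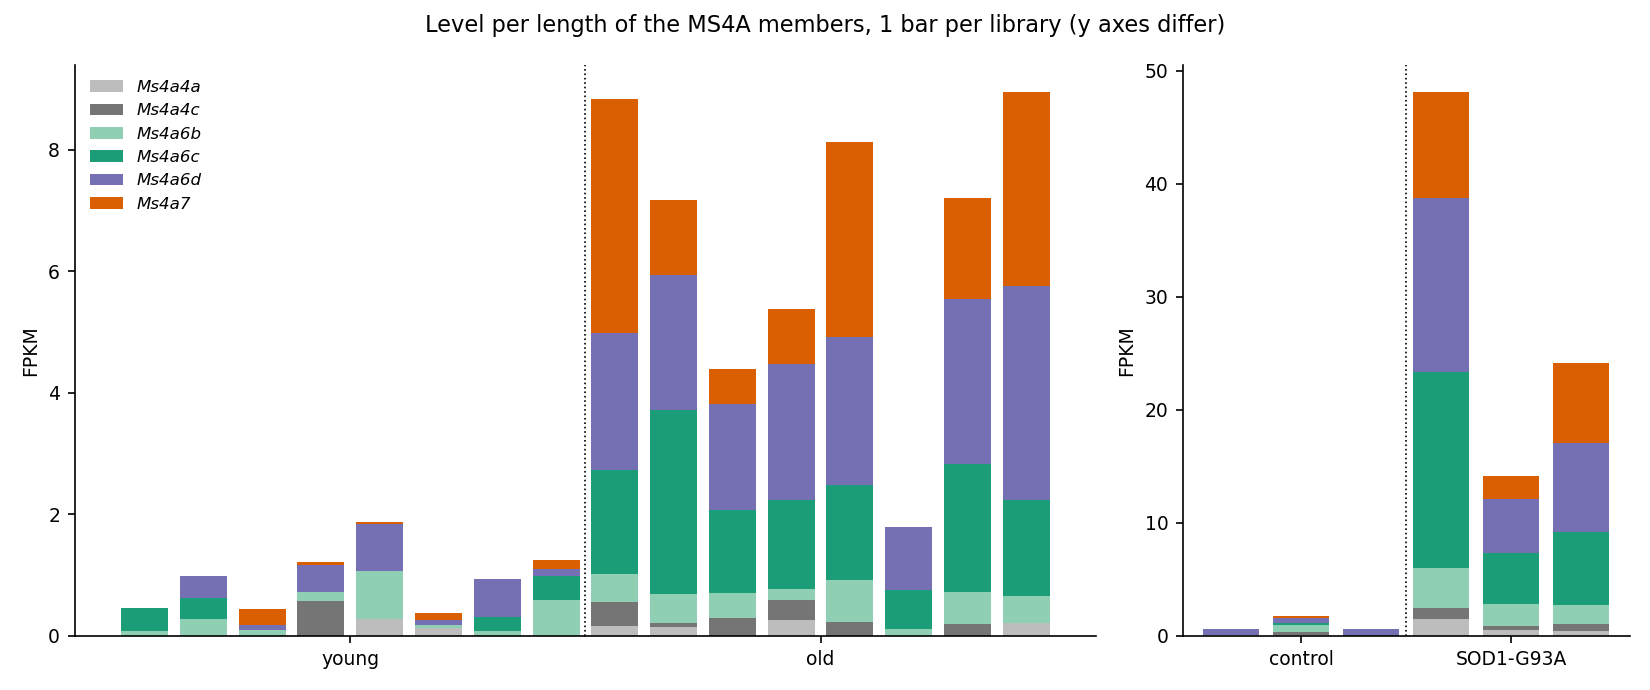
Level per length (FPKM, y axis, different scale in each panel) of the 6 members stacked in 1 bar per library, for the aging libraries on the left and the ALS libraries on the right. The old bars reach 8.95 and the SOD1-G93A bars 14.1 to 48.1, and *Ms4a6c*, *Ms4a6d* and *Ms4a7* make up most of each.

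Of the other 13 *Ms4a* genes, 7 (*Ms4a3*, *Ms4a5*, *Ms4a8a*, *Ms4a10*, *Ms4a12*, *Ms4a13* and *Ms4a18*) were at 0 in all 22 libraries. *Ms4a1* and *Ms4a2*, the B cell and mast cell genes, held at most 2 counts in a library, and *Ms4a15* at most 3. None of these was measurable at this depth. *Ms4a14*, next to *Ms4a7*, rose in SOD1-G93A mice, from 1, 0 and 0 counts to 34, 12 and 28. Its log2 fold change was 5.83 (SE 0.796, edgeR adjusted p = 0.00127). In old mice it held 0 to 5 counts against 0 to 2 in young mice (exact permutation p = 0.192). *Ms4a4b* and *Ms4a4d*, which lie between members, were not tested with the filter. In SOD1-G93A mice their unfiltered changes on the log2 scale were 1.26 (edgeR adjusted p = 0.348) and 1.18 (edgeR adjusted p = 0.452), and in old mice 2.04 (edgeR adjusted p = 0.0804) and 1.11 (edgeR adjusted p = 0.182).

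Genes around the cluster were also examined. Of 26 genes of other families within it or within 300 kb of its ends, 9 were tested in aging and 10 in ALS, and 1 was called in each. Over all genes tested 2.18% were called higher and 0.044% lower in aging, and 8.5% and 1.2% in ALS, so 1 of 10 is near the ALS share. The called neighbour was *Slc15a3*, a peptide and histidine transporter of the lysosome in immune cells, 1 of the genes outside the cluster. Its mean rose from 1.61 to 9.33 CPM in old mice, a log2 fold change of 2.48 (SE 0.239, edgeR adjusted p = 4.6e-08). In SOD1-G93A mice it rose from 1.18 to 24.8 CPM, a log2 fold change of 4.41 (SE 0.326, edgeR adjusted p = 0.000113). The 3 genes of other families inside the cluster had too few counts to be tested.

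**Figure D4:**
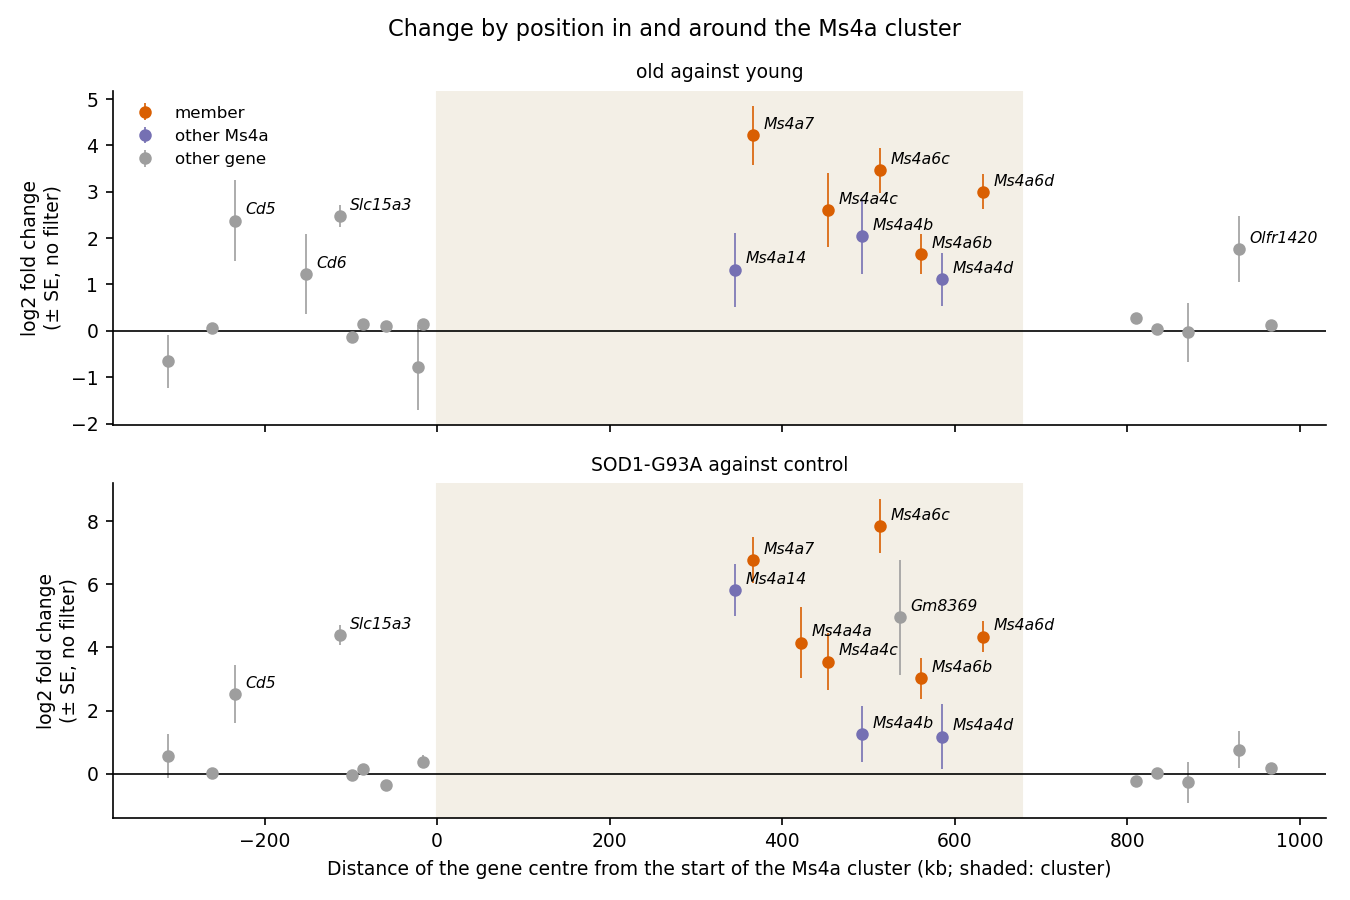
Log2 fold change without the filter (y axis, ± SE) against the distance in kb of each gene's centre from the start of the *Ms4a* cluster (x axis, cluster shaded), for genes with at least 10 counts in the comparison. Members and *Slc15a3* lie above 1 in both panels where plotted, and most flanking genes lie near 0. *Cd5*, *Cd6*, *Olfr1420* and *Gm8369* are labelled where above 1, rest on 11 to 21 counts and were not called (edgeR adjusted p from 0.0557 to 0.353).

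Microglial genes moved with the members. The 12 genes of the microglial list summed to 403.7 to 442.5 CPM in young and 604.1 to 915.7 CPM in old mice, and to 422.1 to 503.1 CPM in control and 1338 to 2313 CPM in SOD1-G93A mice, without overlap in either comparison. Of single genes with a count, 2.85% in aging and 22.4% in ALS separated upward in this way. In aging 4 of 12 were called higher (median log2 fold change 0.716, against -0.00271 over all genes tested), among them *C1qa*, a complement subunit (2.09), and *Aif1*, an actin-binding protein of microglia and macrophages (1.56). In ALS 8 of 12 were called (median 1.74, against 0.00306), and the homeostatic genes *P2ry12*, *Tmem119*, *Siglech* and *Sall1* were not called in either comparison. Of 12 genes of disease-associated microglia, 9 were called higher in old and 12 in SOD1-G93A mice, *Itgax* by 5.64 and 6.92 and *Cst7* by 6.61 and 7.77 on the log2 scale. The share of all genes tested that was called higher was 2.18% in aging and 8.5% in ALS. No gene of either list was at 0.

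*Ms4a6d* was the one member tested in both comparisons, and its level was also set against the microglial list. It was taken because it passed the aging filter, which it did through the old libraries where it is high, so the aging ratio and its p are not independent of that choice. The log2 ratio of its CPM to the summed list was -10.5 ± 1.38 in young and -8.10 ± 0.259 in old mice, a difference of 2.36 (SD, n = 8 each, exact permutation p = 0.000155). In the ALS libraries it was -9.50 ± 0.469 and -7.25 ± 0.5, a difference of 2.25 (SD, n = 3 each, exact permutation p = 0.1, the smallest possible). In 1 young library *Ms4a6d* was at 0, so 0.5 counts were added to it in every aging library. Nothing was added in the ALS libraries, so the differences of 2.36 and 2.25 were not computed alike. The summed list includes genes that were not called, and the ALS test cannot go lower than this p.

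**Figure D5:**
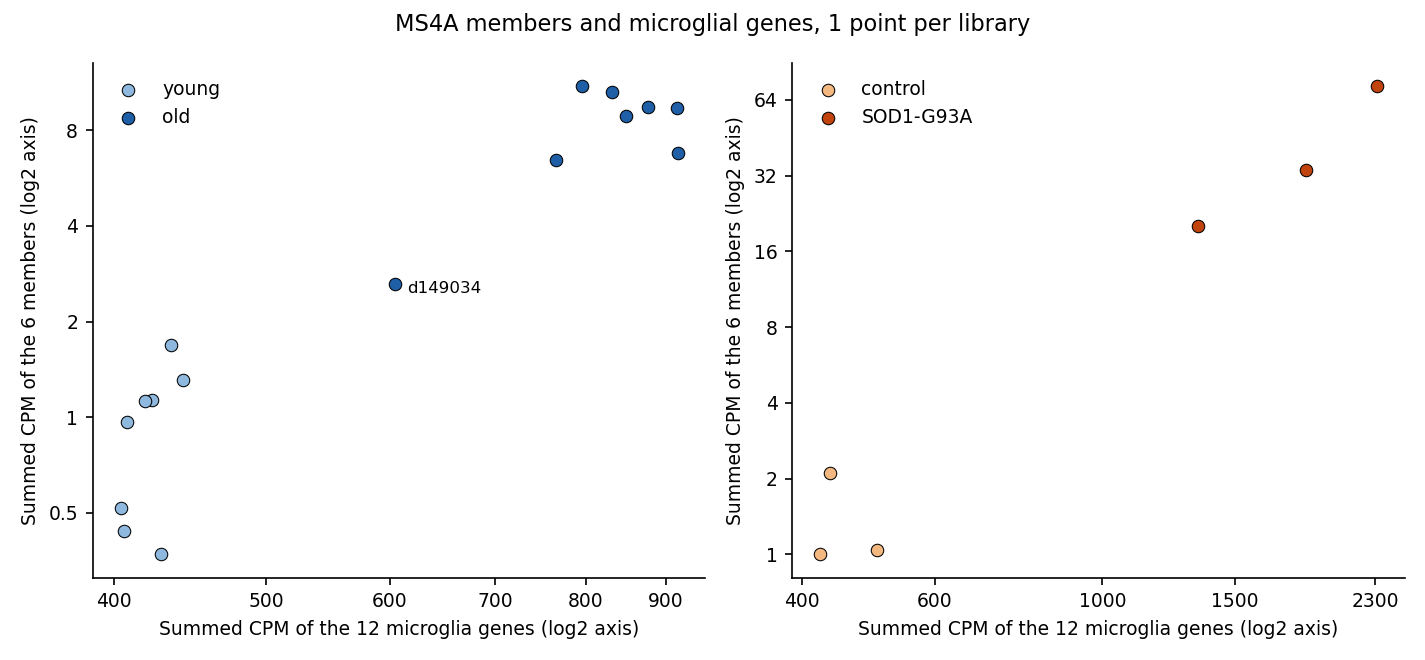
Summed CPM of the 6 members (y axis) against summed CPM of the 12 microglial genes (x axis), both on log2 axes, with 1 point per library and different scales for aging (left) and ALS (right). The old library d149034 lies between the young libraries and the other old ones on both axes, and the 3 SOD1-G93A libraries keep the same order on both.

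Other cells that use MS4A genes were examined through their markers, whose part in the results was not tested. The 10 genes of border macrophages summed to 8.47 to 15.7 CPM in young and 11.1 to 17.3 CPM in old mice, which overlap, and the 1 gene tested, *Stab1*, was not called. In ALS they summed to 10.6 to 13.8 and 28.3 to 49.9 CPM, and 2 of 4 tested were called, *Stab1* (1.71) and *Mrc1* (1.42), both scavenger receptors. The 10 monocyte genes summed to 114 to 139.2 CPM in young and 134.8 to 197.5 CPM in old mice, with 0 of 3 called. *S100a4*, a calcium-binding protein of that list, did not pass the aging filter, and its means were 0.657 ± 0.388 and 6.43 ± 2.42 CPM (SD, n = 8 each). In ALS they summed to 111.9 to 173 and 225.8 to 348.9 CPM, and *S100a4* (4.76) and *Fn1* (1.5) were called of 4 tested. For both lists, the share of all genes tested that was called higher was 2.18% in aging and 8.5% in ALS.

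Lymphoid and granulocyte markers were scarce. The 8 T cell genes in the table summed to 0.548 to 2.03 CPM in young and 2.16 to 4.68 CPM in old mice, and to 0.845 to 1.71 and 2.03 to 2.86 CPM in ALS. These sums did not overlap, and no single gene had enough counts to be tested. Single genes with such separation upward made up 2.85% of 18634 in aging and 22.4% of 18161 in ALS. B cell sums overlapped in both comparisons (0.951 to 4.53 CPM over all libraries). Neutrophil sums were at most 3.80 CPM, with *Ly6g* at 0 in all libraries. Of the mast cell genes, *Tpsb2*, *Mcpt4* and *Fcer1a* were at 0 throughout, and *Hdc*, which is not limited to mast cells, was called (1.02 in aging, 1.61 in ALS). The mast cell sums, 25 to 37.6 CPM over all libraries, were mostly *Kit*, a receptor that other cells also use. Its log2 fold change was -0.41 in aging (edgeR adjusted p = 0.00017) and 0.01 in ALS (edgeR adjusted p = 0.959). Astrocyte genes were also higher as a sum in both comparisons. Their 7 genes summed to 6406 to 7068 CPM in young and 7444 to 8214 CPM in old mice, with 0 of 7 called. The rise of the sum in old mice lay in *Gfap* (mean 1840 to 2970 CPM), while *Gja1* fell (415 to 353 CPM). By edgeR adjusted p alone, 4 of 7 were higher and 1 lower in old mice. In ALS they summed to 6029 to 6630 CPM in control and 11570 to 18040 CPM in SOD1-G93A mice, and *Gfap* (2.40), *Aqp4* (1.40) and *Aldh1l1* (1.09) were called. In SOD1-G93A mice 3 of 9 neuronal genes were called lower, *Nefm* (-1.42), *Nefl* (-1.38) and *Slc6a5* (-1.04), while the 6 blood genes overlapped in both comparisons. Among all genes tested, 2.18% were called higher and 0.044% lower in aging, and 8.5% and 1.2% in ALS.

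In macrophages human MS4A4A is known to act with the receptor dectin-1. A list of TREM2 and dectin-1 partners was therefore examined, of which 12 of 13 were in the table. In all, 8 of 12 were called higher in old and 10 of 12 in SOD1-G93A mice, with median log2 fold changes of 1.04 and 2.21. Over all genes tested, 2.18% and 8.5% were called higher, with medians of -0.00271 and 0.00306. The list was chosen with earlier results of these data known. *Trem2* itself rose from 8.54 ± 1.38 to 44.4 ± 9.68 CPM (SD, n = 8 each), a log2 fold change of 2.37, and in ALS from 10.3 ± 0.444 to 141 ± 45.3 CPM (SD, n = 3 each), or 3.77. Its adaptor *Tyrobp* rose by 2.27 and 3.87 on the log2 scale, and *Fcer1g*, the signalling chain of Fc receptors, by 1.76 and 3.45. *Apoe*, a lipid carrier and TREM2 ligand, rose by 1.05 and 2.80.

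Downstream, *Plcg2*, a phospholipase, rose by 1.04 in old and 1.90 in SOD1-G93A mice, and *Inpp5d*, an inositol phosphatase, by 1.03 and 2.15. The Src-family kinase *Lyn* rose by 1.02 and 2.27, and the sialic acid receptor *Cd33* by 1.19 and 2. *Syk*, the kinase recruited by *Tyrobp*, was called in ALS (2.36), and in aging its log2 fold change of 0.93 (edgeR adjusted p = 0.00137) was below the size threshold. *Card9*, an adaptor of dectin-1 signalling, was called in ALS (1.05), and its log2 fold change in aging was 0.37 (edgeR adjusted p = 0.123). *Adam10* and *Adam17*, proteases that shed TREM2 from the membrane, were not called in either. Their log2 fold changes in aging were 0.03 and 0.01 (edgeR adjusted p = 0.694 and 0.939). In ALS these were 0.26 and 0.87 (edgeR adjusted p = 0.0275 and 0.0026), higher but below the size threshold.

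Finally, the genes whose deviations from their group means were most like those of *Ms4a6d* over the 22 libraries, among 13609 genes, were *Sft2d2* (Pearson r = 0.842), *Fam53a* (0.824), *Fhod1* (0.806), *Sdf2l1* (0.798) and *Btd* (0.795). This is a description. *Ms4a6d* held at most 30 counts in an aging library, so counting noise enters it, and none of the 5 is a member of the microglial lists.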

How the data were processed

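RNA was sequenced from whole spinal cords, 1 library per mouse. The authors aligned reads to mm10 with STAR and summarized genes with RSEM on Ensembl 88, and the submitters' notes also name SAMtools 1.3. They deposited RSEM expected counts, whole as deposited and not normalized, and log2 values of FPKM + 1, which were turned back to FPKM here. The counts were used in every main test. Columns name the group and library and carry no replicate number, so libraries entered unnumbered, and no column of another sample was found (0 unused). Closest replicate pairs differed by a chi-square per degree of freedom of at least 2.57.

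Each comparison was fitted alone in edgeR 4.0.16 (R 4.3.3) with filterByExpr (minimum count 10, total 15), TMM scaling and the quasi-likelihood test, with p-values adjusted by Benjamini-Hochberg across every gene that passed the filter. Single members were compared by exact two-sided permutation of CPM (Python 3.11.15), and pooled counts by exact 95% intervals of the rate ratio. Alternatives were DESeq2 1.42.0, RLE factors, other filters, one fit of all 22 libraries, limma 3.58.1 on log2(FPKM + 1), no size threshold, and each library left out. The fits were tested on simulated data. Positions and coding sequences are from GENCODE M21 (21842 of the 21995 symbols matched). The study used DESeq2 with the same thresholds.

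The members, gene lists and naming rule were chosen with earlier results of these data known. All members were named, then *Ms4a* genes over 3 counts in a library, called neighbours within 300 kb, all TREM2 partners, and of other lists at most 3 genes with the smallest adjusted p plus any called. The genes *P2ry12*, *Tmem119*, *Siglech* and *Sall1*, and the list genes at 0, are named outside that rule. One list gene each of the TREM2, T cell and *Ms4a* lists was not analysed here. A value of 1 called list gene is not reported here.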

Additional observations from a re-analysis of the deposited data

Results flagged for a closer look

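In 12 groups of 8 member values, 1 library stood apart: *Ms4a4c* in young library d159033, at 0.194 CPM, while the other 7 young libraries were at 0. The value is 1 count, and chance marks about 1 group in 20.

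In all, 4 changes differed between the comparisons by the test of the difference in a joint edgeR fit of the 22 libraries. There experiment, kit and sex composition coincide with the conditions and cannot be told apart from them. *Ms4a6c* changed more in SOD1-G93A mice by 4.27 on the log2 scale (edgeR adjusted p = 0.0212), and in 4 of 22 fits that left out a library this did not pass. *Ms4a14* did so by 4.31 (edgeR adjusted p = 0.0495), and in 14 of 22 such fits it did not pass, with an edgeR adjusted p of up to 0.18. *Tmem176a* and *Tmem176b*, relatives of the MS4A proteins encoded elsewhere in the genome and chosen after their values were seen, did so by 1.44 (edgeR adjusted p = 0.000112) and 1.22 (edgeR adjusted p = 0.000122), and both passed in all 22 such fits.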

How the results depend on the processing

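No paired analysis was possible because the columns of the tables carry no replicate numbers. No result reversed. Of 140 results under other settings 120 kept their direction and call or, for counts, stayed within 1.5 times, and of 481 with 1 library left out 439 did. Among those counts, aging genes higher numbered 444 in one fit of all libraries, and 6 members were called in ALS with DESeq2 or no filter, against 4. In aging, where 1 member passed the filter and was called, 4 were called with DESeq2, 5 without a filter and 4 in one fit of all libraries, and 1 to 2 with a library left out. No member had 10 counts in every library, so none was tested under that filter in either comparison. With a library left out, the members called more positive in SOD1-G93A mice numbered 0 to 2. Among all genes in aging, those higher numbered 474 with DESeq2, 508 without a filter, 169 with 10 counts in every library, 126 with limma and 1839 without a size threshold, against 297. Those lower numbered 13, 28, 2, 1 and 1761 under these settings and 12 in one fit of all libraries, against 6, and 5 to 11 with a library left out. In ALS limma gave 812 higher and 56 lower and no size threshold 2641 and 2236, against 1223 and 172, and with a library left out the lower genes numbered 81 to 451. In the difference between comparisons, leaving out a library gave 1075 to 2211 more positive and 1309 to 2729 more negative genes, against 1682 and 2063. In aging the stricter filter tested 12633 genes, against 13647. Why these numbers differ between settings was not tested. Depth limits *Ms4a4a* and *Ms4a4c* most, at no more than 3 counts in any aging library.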

Other observations

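The 2 TMEM176 genes, relatives of the MS4A family of membrane proteins in antigen-presenting cells, were far more abundant than the members, so their changes rest on more counts. *Tmem176a* was at 17.2 ± 1.74 CPM in young and 38.0 ± 7.76 CPM in old mice (SD, n = 8 each), a log2 fold change of 1.14 (SE 0.11, edgeR adjusted p = 4.33e-08). In ALS it was at 17.5 ± 3.48 CPM in control and 106 ± 32.2 CPM in SOD1-G93A mice (SD, n = 3 each), a log2 fold change of 2.60 (SE 0.237, edgeR adjusted p = 0.000218). *Tmem176b* rose from 29.5 ± 4.21 to 136 ± 42.7 CPM in ALS (SD, n = 3 each), by 2.21 on the log2 scale (edgeR adjusted p = 0.000331). In aging it went from 31.7 ± 4.02 to 61.9 ± 7.97 CPM (SD, n = 8 each), a log2 fold change of 0.962 (edgeR adjusted p = 6.81e-09), below the size threshold. Without the old library d149034 this was 1.01 and called. *Tmem176a* in aging was 0.997 with limma on log2(FPKM + 1), below the threshold. Neither gene overlapped between the groups in either comparison, as held upward for 2.85% of 18634 genes in aging and 22.4% of 18161 in ALS.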
